A study of Mus musculus with 6 samples.

Results

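The p53 pathway was examined in RNA from 4T1 tumors through 32 genes: Trp53, which encodes p53, 3 direct regulators of the protein and 28 genes known as its transcriptional targets. The members are genes commonly listed under p53, chosen by symbol, and were matched to the Ensembl identifiers of the deposited tables. All 32 were found among 54146 gene rows, and all 32 had enough counts to be tested. p53 is a transcription factor that is kept scarce by the ubiquitin ligase Mdm2 and held inactive by Mdm4. After DNA damage, oncogene activity or nucleolar stress it escapes this control, binds response elements near its targets and raises transcripts for cell cycle arrest, apoptosis, DNA repair and metabolic adjustment. Mdm2 and Ppm1d are themselves targets and close a negative loop. The 4T1 line, a mammary carcinoma line from a BALB/c mouse, is commonly described as lacking functional p53, whereas the host cells of the mouse carry the gene intact.

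Transcript levels were compared between 3 libraries of Ki-67-KO tumors and 3 libraries of Wild Type tumors. The Ki-67-KO tumors grew from 4T1 cells with both copies of Mki67 knocked out (Mki67-/-), and the Wild Type tumors from 4T1 cells with the gene intact. Mki67 encodes Ki-67, a large nuclear protein of proliferating cells that coats mitotic chromosomes. Cells of either kind were injected into the mammary fat pad of nude mice, a host without a thymus or mature T cells that keeps its NK cells, and tumors were taken 3 weeks later. The labels do not say how many knockout clones were used, so a difference between clones cannot be told apart from one between genotypes. The libraries were sequenced as read pairs of 50 bases on an Illumina HiSeq instrument. Tumor and host are both mouse, so no count can be assigned to tumor cells or host cells. A lower bulk level cannot tell fewer cells of a type from less RNA per cell.

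Levels are given as CPM (gene counts scaled to a common library total, with TMM factors), and differences as log2 fold changes of Ki-67-KO over Wild Type from edgeR, with a standard error (SE) and a p adjusted over all 19900 genes tested. A gene is called higher or lower where its adjusted p was under 0.05, and a signed value in parentheses before an adjusted p is its log2 fold change. Mki67 itself had 98.7, 117 and 139 CPM in the Ki-67-KO libraries, against 360, 395 and 325 CPM in the Wild Type libraries, with a difference of -1.61 on the log2 scale (SE 0.14, adjusted p = 6.79e-05), so transcript of the targeted gene was reduced and not absent. Gene counts totalled 22081970 to 30772729 read pairs in the Ki-67-KO libraries and 37065778 to 38399826 in the Wild Type libraries. Ki-67-KO replicates 2 and 3 stood apart in that 54.6% and 52.7% of their pairs were unmapped, against 30.8% in Ki-67-KO replicate 1 and 31.2% to 33.9% in the Wild Type libraries. Among markers of the cell types a tumor piece can hold, the 6 epithelial markers summed to 5458 to 5831 CPM in Ki-67-KO libraries and 2814 to 2932 CPM in Wild Type libraries. The 8 macrophage markers summed to 906 to 1113 CPM in Ki-67-KO libraries and 5135 to 5992 CPM in Wild Type libraries. Fibroblast markers summed to 5268 to 10325 CPM in Ki-67-KO libraries, highest in replicate 2, and 3130 to 3978 CPM in Wild Type libraries. Of these 6 markers, 5 were called higher and 1 lower. Keratinocyte markers summed to 712 to 1571 CPM in Ki-67-KO libraries and 69.5 to 123 CPM in Wild Type libraries, and the 5 NK cell markers to 0.553 to 1.38 CPM in Ki-67-KO libraries and 31.1 to 43.7 CPM in Wild Type libraries. None of these markers was at 0 in all 6 libraries, while Prf1, of the NK list, and Cd8a, of the T cell list, were at 0 in some. The part of cell composition in the results below was not tested.

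p53 binds DNA as a tetramer at pairs of a 10-base half-site, whose consensus has purines, then a C, a pair of A or T bases, a G and pyrimidines, and reads the same on both strands. RefSeq promoter windows of 300 bases (GRCm38.p6, 250 bases before to 50 after a transcript start) were held for 24 of the 32 members. A perfect half-site lay in a window of 10 of these 24 members (41.7%), against 2582 of 27025 genes with a window (9.55%). No member window held a pair of perfect half-sites at a spacing of 0 to 13 bases, which 20 genes of 27025 (0.074%) did. The windows are shown for the 4 members with a half-site that were called in the comparison, and for Mdm2 and Ccng1, a pair of classic p53 targets that were not. Capitals mark the half-site, and each sequence runs 5′ to 3′ on the strand of the gene.
Ei24, chr9:36797285-36797584, minus strand: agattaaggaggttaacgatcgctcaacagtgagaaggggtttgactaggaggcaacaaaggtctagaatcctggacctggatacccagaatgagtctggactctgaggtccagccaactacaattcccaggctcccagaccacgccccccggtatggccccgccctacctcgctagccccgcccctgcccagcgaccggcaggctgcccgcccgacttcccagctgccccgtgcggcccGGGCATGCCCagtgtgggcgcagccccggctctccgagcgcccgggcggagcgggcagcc
Gadd45a, chr6:67037358-67037657, minus strand: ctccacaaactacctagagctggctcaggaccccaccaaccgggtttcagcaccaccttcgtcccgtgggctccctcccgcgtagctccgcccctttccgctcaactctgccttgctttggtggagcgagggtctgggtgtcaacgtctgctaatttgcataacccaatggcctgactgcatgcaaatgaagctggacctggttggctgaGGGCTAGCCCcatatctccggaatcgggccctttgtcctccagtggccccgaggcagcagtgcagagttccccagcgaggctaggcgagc
Bax, chr7:45466849-45467148, minus strand: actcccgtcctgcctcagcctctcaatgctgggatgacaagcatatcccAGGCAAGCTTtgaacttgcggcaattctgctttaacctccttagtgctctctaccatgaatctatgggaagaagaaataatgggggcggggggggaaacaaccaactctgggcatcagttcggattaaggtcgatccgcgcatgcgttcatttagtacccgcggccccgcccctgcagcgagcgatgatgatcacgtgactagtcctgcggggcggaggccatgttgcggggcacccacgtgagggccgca
Sesn1, chr10:41887189-41887488, plus strand: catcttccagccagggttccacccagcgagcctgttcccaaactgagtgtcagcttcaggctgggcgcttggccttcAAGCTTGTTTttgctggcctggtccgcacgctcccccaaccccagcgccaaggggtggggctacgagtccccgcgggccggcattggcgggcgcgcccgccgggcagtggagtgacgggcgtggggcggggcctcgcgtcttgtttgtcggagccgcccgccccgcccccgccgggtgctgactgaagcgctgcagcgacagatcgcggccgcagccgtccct
Mdm2, chr10:117710709-117711008, minus strand: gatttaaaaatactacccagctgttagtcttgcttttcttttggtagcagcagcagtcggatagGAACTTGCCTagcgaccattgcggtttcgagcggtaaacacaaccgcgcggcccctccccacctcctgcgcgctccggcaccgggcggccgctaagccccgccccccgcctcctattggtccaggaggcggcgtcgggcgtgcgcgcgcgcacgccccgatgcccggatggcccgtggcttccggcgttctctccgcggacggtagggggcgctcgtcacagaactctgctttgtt
Ccng1, chr11:40755237-40755536, minus strand: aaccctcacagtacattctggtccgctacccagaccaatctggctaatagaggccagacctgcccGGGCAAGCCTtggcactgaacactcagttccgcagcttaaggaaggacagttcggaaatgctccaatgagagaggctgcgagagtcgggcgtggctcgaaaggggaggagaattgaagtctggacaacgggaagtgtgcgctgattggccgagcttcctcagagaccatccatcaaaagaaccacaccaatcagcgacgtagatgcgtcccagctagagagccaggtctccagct

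The half-site began 10 bases before the transcript start in Ei24, 40 before it in Gadd45a, 173 in the second window of Sesn1, 185 in Ccng1, 186 in Mdm2 and 201 in Bax. The other 4 members with a half-site in their window were Trp53 (GGACTTGCCC), Aen (GGGCTTGTCC), Polk (GAACTAGCCT) and Ppm1d (GAGCTTGCTC). Of the 10 members, 1 was higher (Ei24), 3 were lower (Gadd45a, Bax and Sesn1) and 6 were not called. Of all genes tested, 17.6% were higher and 18.4% lower, so such a mix is not a result about the half-site. A match of letters is not a bound site, and the response elements of Mdm2 and Gadd45a are known to lie in introns. No window was held for Pmaip1, Trp53inp1, Perp, Tnfrsf10b, Ddb2, Xpc, Rrm2b and Zmat3.

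The 32 members did not move together. In the Ki-67-KO tumors 7 members were higher, namely Perp, Fas, Ddb2, Plk2, Btg2, Tnfrsf10b and Ei24, and 7 were lower, namely Gdf15, Trp53inp1, Apaf1, Gadd45a, Sesn1, Bax and Bbc3. The remaining 18, with Trp53, Mdm2, Mdm4, Ppm1d, Ccng1, Phlda3, Zmat3 and Pmaip1 among them, did not pass. The 7 higher members were 21.9% of the list, beside 17.6% of all tested genes, and the 7 lower members were also 21.9%, beside 18.4% of all tested genes, so the share called in either direction was near the background and is not a result about the list. The 3 Ki-67-KO values lay apart from the 3 Wild Type values for 19 members, 7 above and 12 below (59.4%), beside 50.5% of all genes. The median log2 fold change was -0.12 over the members and 0.05 over all genes tested. Each Ki-67-KO library gave a member median of the same sign, at -0.14, -0.07 and -0.18 for replicates 1, 2 and 3 against the Wild Type mean. On the same scale the Wild Type libraries gave member medians of -0.035 to 0.046, and all-gene medians of the 6 libraries ran from -0.005 to 0.014. Leaving out Ki-67-KO replicate 2 gave 6 members higher and 8 lower, and keeping only libraries with under 40% unmapped pairs, which leaves Ki-67-KO replicate 1 alone against the Wild Type libraries, gave 6 higher and 10 lower. Of the 14 called members, 10 kept their call and direction in all 18 alternative analyses, and the exceptions were Tnfrsf10b, Ei24, Bbc3 and Sesn1.

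**Figure D1:**
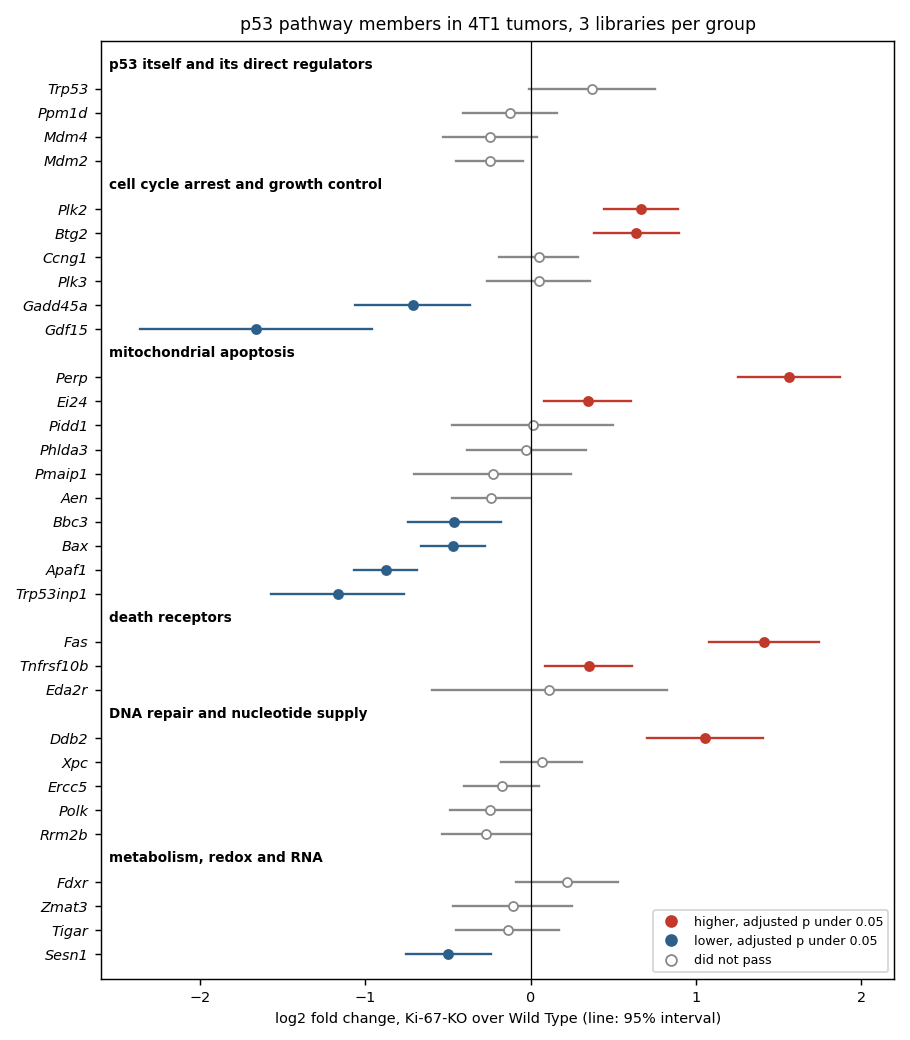
Log2 fold change of each of the 32 members, Ki-67-KO over Wild Type, with its 95% interval, grouped by the role of the gene; filled points passed an adjusted p of 0.05 in edgeR. The values run from -1.66 for Gdf15 to 1.56 for Perp, and members of both directions stand within the groups for cell cycle arrest and for mitochondrial apoptosis.

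None of the 4 genes of the p53 core was called, beside 17.6% higher and 18.4% lower of all genes tested. Trp53 (ENSMUSG00000059552, GRCm38 chromosome 11, 69580359 to 69591873) had 49.2, 81.0 and 58.7 CPM in the Ki-67-KO libraries, against 47.6, 46.7 and 51.8 CPM in the Wild Type libraries. Ki-67-KO replicate 2 was the highest of all 6, replicate 1 lay within the Wild Type range and the groups overlapped. The log2 fold change was 0.37 (SE 0.17, adjusted p = 0.115), and without Ki-67-KO replicate 2 it was 0.10 (adjusted p = 0.45), whereas without Ki-67-KO replicate 1 it was 0.52 and passed (adjusted p = 0.0181). It also passed with a covariate for the share of pairs outside exons (0.58, adjusted p = 0.0497). A covariate for the unmapped share brought it to 0.046 (adjusted p = 0.846). Leaving out both Ki-67-KO libraries with over 40% unmapped pairs, which leaves 1 Ki-67-KO library, brought it to -0.050. Among the marker sums, those of fibroblasts, keratinocytes and adipocytes, the last at 189, 471 and 236 CPM in Ki-67-KO libraries and 50.2 to 85.0 CPM in Wild Type libraries, were also highest in Ki-67-KO replicate 2, and their part in the Trp53 value was not tested.

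Mdm2, the ligase that marks p53 for destruction, had 72.2, 64.9 and 65.9 CPM in the Ki-67-KO libraries, against 82.9, 74.8 and 83.6 CPM in the Wild Type libraries. Every Ki-67-KO value was below every Wild Type value, by a small margin, and the log2 fold change was -0.25 (SE 0.09, adjusted p = 0.0588). The call depends on the tool and on a library: DESeq2 placed Mdm2 past the threshold (adjusted p = 0.047), as did edgeR without Ki-67-KO replicate 1 (-0.31, adjusted p = 0.0168). Mdm4, which binds p53 and blocks its activation domain, had 80.6, 112 and 94.0 CPM in Ki-67-KO libraries, against 118, 104 and 117 CPM in Wild Type libraries, and the groups overlapped through Ki-67-KO replicate 2. Its log2 fold change was -0.25 (SE 0.13, adjusted p = 0.155), and it passed at -0.42 (adjusted p = 0.0108) without that replicate, at -0.55 (adjusted p = 0.00179) when Ki-67-KO replicates 2 and 3, whose unmapped share is above 40%, were both left out, and at -0.47 (adjusted p = 0.019) when that share entered the fit as a covariate. Ppm1d, the phosphatase Wip1 that switches the DNA damage response off, had 11.3, 13.9 and 11.9 CPM in Ki-67-KO libraries, against 12.9, 13.6 and 14.0 CPM in Wild Type libraries, an overlap; the log2 fold change was -0.13 (SE 0.12, adjusted p = 0.448).

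Per length, Mdm2 transcripts stood to Trp53 transcripts as 1.17, 0.637 and 0.894 to 1 in the Ki-67-KO libraries, against 1.39, 1.27 and 1.28 to 1 in the Wild Type libraries, as ratios of TPM, a level scaled by exon length. All 3 Ki-67-KO ratios were below the Wild Type ratios, and the two-sided exact permutation p was 0.1, the smallest that 3 libraries against 3 allow. The ratio of Mdm2 to Mdm4 overlapped between the groups, at 2.11 ± 0.46 in Ki-67-KO libraries and 2.07 ± 0.03 in Wild Type libraries (SD, n = 3 each, exact permutation p = 0.9).

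**Figure D2:**
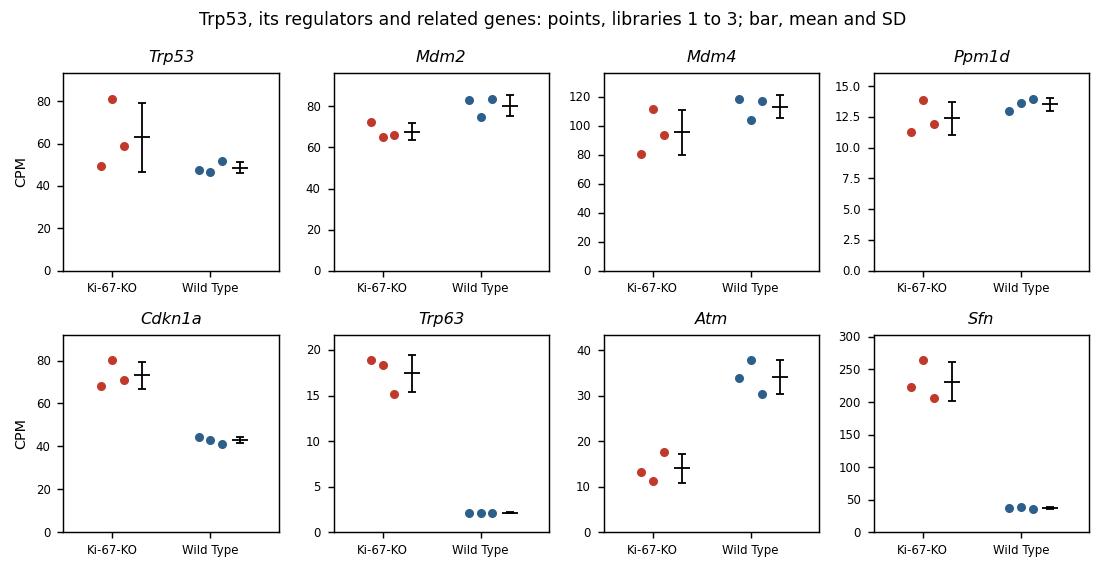
CPM of Trp53, its regulators and 4 related genes in each library, with the mean and SD of each group of 3; the axes start at 0. Trp53, Mdm4 and Ppm1d overlap between the groups, whereas Cdkn1a, Trp63 and Sfn lie higher in all 3 Ki-67-KO libraries and Atm lower.

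Genes of cell cycle arrest and growth control divided evenly, with 2 of 6 higher, 2 lower and 2 not called. Each direction held 33.3%, beside 17.6% higher and 18.4% lower of all genes tested. Plk2 (ENSMUSG00000021701, chromosome 13, 110395046 to 110400844), a polo-like kinase of the centriole cycle, had 60.4, 61.2 and 52.0 CPM in Ki-67-KO libraries, against 35.6, 35.3 and 38.5 CPM in Wild Type libraries. The groups were well apart, and the log2 fold change was 0.67 (SE 0.10, adjusted p = 0.00124). Btg2 (ENSMUSG00000020423, chromosome 1, 134075170 to 134079120), an antiproliferative cofactor of mRNA deadenylation, had 18.4, 21.8 and 18.9 CPM in Ki-67-KO libraries, against 12.5, 12.7 and 12.7 CPM in Wild Type libraries. All Wild Type values were nearly equal and below the Ki-67-KO values (log2 fold change 0.64, SE 0.11, adjusted p = 0.00316).

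In the same role group, Gadd45a (ENSMUSG00000036390, chromosome 6, 67035096 to 67037457), a stress sensor that inhibits the mitotic kinase Cdk1, was lower. It had 118, 82.4 and 92.8 CPM in Ki-67-KO libraries, against 152, 144 and 187 CPM in Wild Type libraries. The groups did not overlap, and the log2 fold change was -0.72 (SE 0.15, adjusted p = 0.00739). Of its exonic bases, 19.1% are shared with E230016M11Rik, and pairs that fall there were not counted. Gdf15, a secreted stress cytokine, had the largest fold among the lower members at a low level, 0.325, 0.514 and 0.430 CPM in Ki-67-KO libraries, against 1.38, 1.27 and 1.36 CPM in Wild Type libraries. These stand for 33 counts over the Ki-67-KO libraries and 149 over the Wild Type libraries, and every library was above the 0.079 to 0.129 CPM that 3 counts amount to (log2 fold change -1.66, SE 0.31, adjusted p = 0.00399). Ccng1, cyclin G, overlapped between the groups, at 48.4 to 62.0 CPM in Ki-67-KO libraries and 52.6 to 55.6 CPM in Wild Type libraries. Plk3, a stress-responsive kinase, likewise overlapped, with a log2 fold change of 0.05 (SE 0.14). It was -0.27 when only libraries with under 40% unmapped pairs were kept, which leaves 1 Ki-67-KO library.

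Cdkn1a, which encodes the CDK inhibitor p21 and is the best known arrest target outside the 32 members, was higher as well. It had 68.2, 80.1 and 70.9 CPM in Ki-67-KO libraries, against 44.4, 43.0 and 41.3 CPM in Wild Type libraries, with no overlap (log2 fold change 0.77, SE 0.09, adjusted p = 0.000457).

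Beside 18.4% lower and 17.6% higher of all genes tested, 40% of the 10 members of mitochondrial apoptosis were lower and 20% higher. Of these 10 members, 4 were lower, 2 were higher and 4 were not called. The lower ones form the core of the intrinsic pathway: Bax, which permeabilises the outer mitochondrial membrane, Bbc3 (Puma), which releases Bax from its inhibitors, and Apaf1, which assembles the apoptosome with cytochrome c, together with Trp53inp1, a cofactor of p53 and of autophagy. Apaf1 (ENSMUSG00000019979, chromosome 10, 90989311 to 91082770) had 26.8, 27.9 and 26.9 CPM in Ki-67-KO libraries, against 49.4, 49.0 and 51.7 CPM in Wild Type libraries. Both groups were tight, and the Ki-67-KO mean was 0.544 of the Wild Type mean (log2 fold change -0.88, SE 0.08, adjusted p = 0.000129). Bax (ENSMUSG00000003873, chromosome 7, 45461697 to 45466898) had 35.3, 35.2 and 33.6 CPM in Ki-67-KO libraries, against 49.6, 48.4 and 45.9 CPM in Wild Type libraries. The groups did not overlap (log2 fold change -0.47, SE 0.08, adjusted p = 0.0036), and 12.2% of the exonic bases are shared with Gm45808.

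Bbc3 had 14.7, 13.4 and 12.7 CPM in Ki-67-KO libraries, against 20.9, 18.1 and 17.2 CPM in Wild Type libraries, and all 3 Ki-67-KO values were below the lowest Wild Type value. Its log2 fold change of -0.46 (SE 0.12, adjusted p = 0.0191) lost the threshold in 6 of 18 alternatives, among them the omission of Wild Type replicate 1 or 2 or of Ki-67-KO replicate 3, with adjusted p up to 0.102. Trp53inp1 (ENSMUSG00000028211, chromosome 4, 11156431 to 11174379) had 12.9, 8.65 and 11.6 CPM in Ki-67-KO libraries, against 26.0, 20.6 and 28.1 CPM in Wild Type libraries. It was the lower member with the largest fold after Gdf15 (log2 fold change -1.17, SE 0.18, adjusted p = 0.00146).

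Perp (ENSMUSG00000019851, chromosome 10, 18845020 to 18857073) was the member with the largest rise. It encodes a tetraspan membrane protein that acts in p53-dependent apoptosis and is also a part of desmosomes, where p63 drives it in stratified epithelia. Perp had 264, 257 and 188 CPM in Ki-67-KO libraries, against 77.1, 84.6 and 78.4 CPM in Wild Type libraries. The lowest Ki-67-KO value was over the highest Wild Type value by a wide margin, the means differed 2.95-fold and the log2 fold change was 1.56 (SE 0.14, adjusted p = 7.13e-05). Beside it stand the epithelial and keratinocyte marker sums given above, which were higher in all 3 Ki-67-KO libraries; their part in the Perp value was not tested. Ei24, a protein of the endoplasmic reticulum that binds Bcl2, had 182, 138 and 142 CPM in Ki-67-KO libraries, against 122, 122 and 120 CPM in Wild Type libraries. Replicate 1 was the highest and the groups did not overlap, but the log2 fold change of 0.34 (SE 0.12, adjusted p = 0.0468) lost the threshold in 6 of 18 alternatives, among them the omission of any 1 Wild Type library or of Ki-67-KO replicate 3 (adjusted p 0.0606 to 0.234).

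The 4 members of the group that did not pass were Pmaip1 (Noxa, an inhibitor of Mcl1), Aen, a nuclease, Phlda3, an inhibitor of Akt, and Pidd1, a scaffold that activates caspase 2. Their log2 fold changes were -0.23 for Pmaip1, -0.24 for Aen, -0.03 for Phlda3 and 0.01 for Pidd1. Only Aen had groups that did not overlap, at 20.7 to 23.6 CPM in Ki-67-KO libraries and 25.2 to 28.2 CPM in Wild Type libraries (adjusted p = 0.101).

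**Figure D3:**
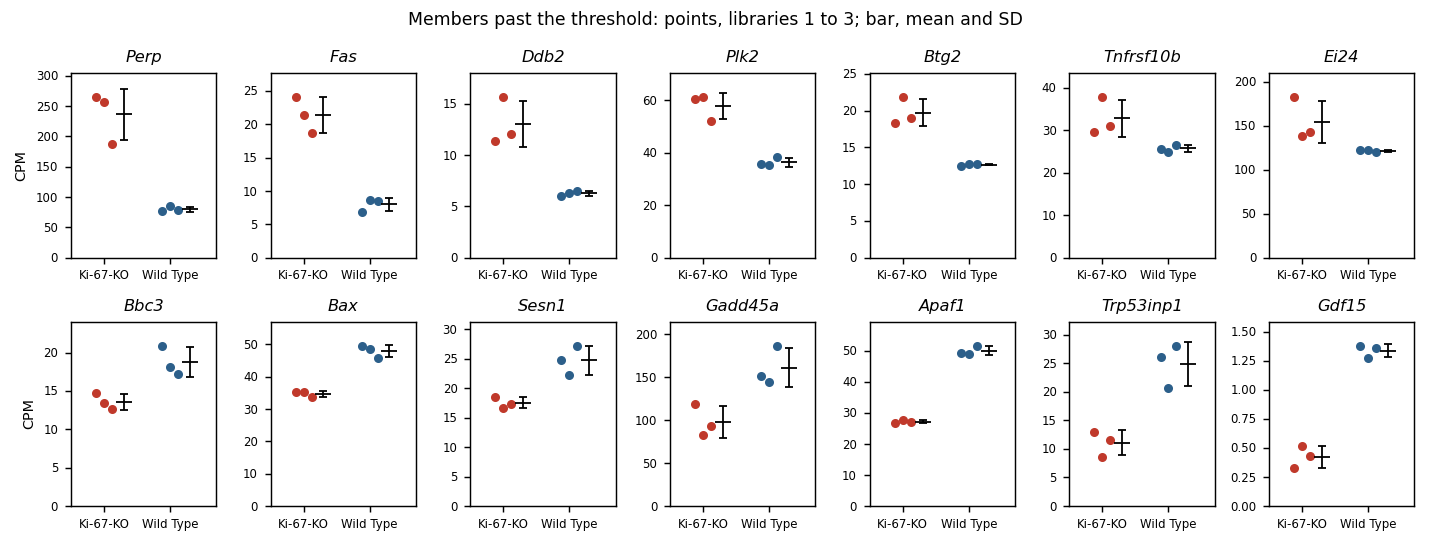
CPM of the 14 members past the threshold in each library, 7 higher in the upper row and 7 lower in the lower row, with the mean and SD of each group of 3; each axis starts at 0. In every panel the 3 Ki-67-KO points lie apart from the 3 Wild Type points, from the wide gap of Perp (188 to 264 CPM in Ki-67-KO libraries and 77.1 to 84.6 CPM in Wild Type libraries) to the narrow one of Tnfrsf10b.

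The partners of these genes were read from a list of 17 further genes of mitochondrial apoptosis, of which 6 were lower, 2 were higher and 9 were not called. The shares were 35.3% lower and 11.8% higher, beside 18.4% and 17.6% of all genes tested. Among the initiators with a BH3 domain only, Bmf had 21.9 to 25.7 CPM in Ki-67-KO libraries and 58.7 to 71.1 CPM in Wild Type libraries (-1.52, SE 0.12, adjusted p = 3.43e-05). Bcl2l11 (Bim) was also lower (-0.55, adjusted p = 0.00238), as was Bad (-0.49, adjusted p = 0.0171). Inhibitors of apoptosis were lower too, namely Mcl1 (-0.60, adjusted p = 0.00205), Xiap (-0.72, adjusted p = 0.00849) and Bcl2a1b (-1.15, adjusted p = 0.0156). Bcl2l1 (Bcl-xL), another inhibitor, was among the higher genes (0.25, adjusted p = 0.0359). The lower genes include both promoters and inhibitors of apoptosis. Bcl2a1b shares 49.1% of its exonic bases with another gene and Bad 20.5%, and pairs that fall there were not counted. Leaving out 1 library cost Bad (Wild Type replicate 1 or 2 or Ki-67-KO replicate 3, adjusted p 0.052 to 0.059), Bcl2a1b (Wild Type replicate 1 or Ki-67-KO replicate 3, 0.0586 to 0.0676) and Bcl2l1 (any library but Ki-67-KO replicate 1, 0.0834 to 0.262) their calls, and no gene of the list was called higher without Wild Type replicate 2 or 3. Per length, Bax stood to Bcl2l1 as 0.907, 0.914 and 0.885 to 1 in Ki-67-KO libraries, against 1.57, 1.43 and 1.46 to 1 in Wild Type libraries. The ratios did not overlap (two-sided exact permutation p = 0.1, the smallest possible here). Macrophage markers were lower in all 3 Ki-67-KO libraries, as given above, and their part in the lower values of this group was not tested.

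Of the 3 death receptors, 2 were higher (66.7%, beside 17.6% of all genes) and none was lower (18.4% of all genes). Fas (ENSMUSG00000024778, chromosome 19, 34290666 to 34327772), the receptor of Fas ligand, had 24.0, 21.4 and 18.7 CPM in Ki-67-KO libraries, against 6.90, 8.63 and 8.58 CPM in Wild Type libraries. The groups were far apart, the means differed 2.66-fold and the log2 fold change was 1.41 (SE 0.15, adjusted p = 0.000189). Tnfrsf10b, the receptor of Trail in the mouse, had 29.6, 37.8 and 31.0 CPM in Ki-67-KO libraries, against 25.6, 25.0 and 26.6 CPM in Wild Type libraries. The groups did not overlap, and the log2 fold change was 0.35 (SE 0.11, adjusted p = 0.0429), but the threshold was lost in 9 of 18 alternatives, among them the omission of any 1 Wild Type library or of Ki-67-KO replicate 2 or 3, and without Ki-67-KO replicate 2 it was 0.19 (adjusted p = 0.131). Eda2r, the receptor of the A2 form of ectodysplasin, was low, at 0.751 to 1.29 CPM in Ki-67-KO libraries and 0.802 to 1.01 CPM in Wild Type libraries, and the groups overlapped.

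Of the ligands of these receptors, Tnfsf10 and Eda were lower and Fasl was not tested. Tnfsf10, which encodes Trail, had 4.16, 3.52 and 4.17 CPM in Ki-67-KO libraries, against 14.9, 13.1 and 14.7 CPM in Wild Type libraries, which is -1.85 on the log2 scale (SE 0.14, adjusted p = 3.56e-05). Eda, ectodysplasin, had 0.586, 0.869 and 1.03 CPM in Ki-67-KO libraries, against 3.18, 3.42 and 3.53 CPM in Wild Type libraries (-2.03, SE 0.26, adjusted p = 0.00056). Both ligands were lower without overlap; the counts of Eda do not give its A2 form, and its receptor Eda2r was not called. Fasl, the ligand of Fas, had counts too low to be tested, at 0, 0.079 and 0 CPM in Ki-67-KO libraries and 0.138, 0.424 and 0.347 CPM in Wild Type libraries. Of the 9 tested genes of the death receptor list, 4 were lower, namely Tnfsf10, Eda, the caspase inhibitor Cflar (-0.47, adjusted p = 0.00265) and the initiator caspase Casp8 (-0.41, adjusted p = 0.0194), and 1 was higher, the adaptor Cradd (0.60, adjusted p = 0.0243). Casp8 missed the threshold without any 1 Wild Type library or Ki-67-KO replicate 3 (adjusted p 0.0526 to 0.0637), and Cradd without any 1 library but Ki-67-KO replicate 1 (0.0627 to 0.119). The lower genes were 44.4% of those tested in the list and the higher gene 11.1%, beside 18.4% and 17.6% of all genes tested. Without Ki-67-KO replicate 2, 7 genes of the list were lower. NK cell and macrophage marker sums were lower in the Ki-67-KO libraries, and their part in the ligand values was not tested.

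Of the 5 members for DNA repair and nucleotide supply, Ddb2 alone was called higher (20%, beside 17.6% of all genes). None was lower (18.4% of all genes). Ddb2 (ENSMUSG00000002109, chromosome 2, 91211572 to 91236982), which recognises ultraviolet lesions for nucleotide excision repair, had 11.4, 15.6 and 12.05 CPM in Ki-67-KO libraries, against 6.05, 6.28 and 6.52 CPM in Wild Type libraries. All Ki-67-KO values were well above the Wild Type values, and the log2 fold change was 1.05 (SE 0.15, adjusted p = 0.00124). The size of this value depends on how pairs were counted, because 23.8% of the exonic bases of Ddb2 are shared with Acp2 on the other strand. A pair that falls there is left out of the unstranded column and counted for 1 of the genes in a stranded column. The stranded column held 1400 counts of Ddb2 over the Ki-67-KO libraries, 136% of the 1027 in the unstranded column, and 1621 over the Wild Type libraries, 232% of 700, and on it the log2 fold change was 0.35 (adjusted p = 0.0403). For 30 of the members the stranded column held 47.0% to 59.8% of the unstranded count in either group, and for Gadd45a 89.7% in Ki-67-KO and 92.2% in Wild Type libraries. Since the libraries carry no strand, the stranded column cannot separate Ddb2 from Acp2 in the shared bases.

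The other members of this group were Xpc, which recognises lesions in nucleotide excision repair, Ercc5, its endonuclease at the side 3′ to the lesion, Polk, a polymerase that copies past damage, and Rrm2b, the p53-inducible small subunit of ribonucleotide reductase. Their log2 fold changes were 0.07 for Xpc, -0.18 for Ercc5, -0.24 for Polk and -0.27 for Rrm2b. For Ercc5, Polk and Rrm2b the Ki-67-KO values lay below the Wild Type values without overlap, but the adjusted p was 0.197, 0.109 and 0.106 in that order. The groups lay apart in this way, in either direction, for 50.5% of all genes tested. Rrm2b had 28.8, 22.1 and 25.4 CPM in Ki-67-KO libraries, against 30.6, 29.3 and 32.2 CPM in Wild Type libraries, and it passed without Ki-67-KO replicate 1 (-0.38, adjusted p = 0.0161).

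In the list of 15 further genes of nucleotide excision repair, 2 were higher, 3 were lower and 10 were not called. The shares were 13.3% higher and 20% lower, beside 17.6% and 18.4% of all genes tested. Both shares were near the background and are not a result about the list. Ercc1, which pairs with the endonuclease Ercc4, had 191, 267 and 220 CPM in Ki-67-KO libraries, against 153, 134 and 145 CPM in Wild Type libraries (0.65, SE 0.13, adjusted p = 0.00509). Rad23b, a partner of Xpc, was lower (-0.37, adjusted p = 0.00828), as were the scaffold Xpa (-0.34, adjusted p = 0.0285) and Rpa1 (-0.43, adjusted p = 0.00631), a subunit of the single-strand binding complex. Xpa missed the threshold without any 1 Wild Type library or Ki-67-KO replicate 3 (adjusted p 0.058 to 0.124) and Rad23b without Wild Type replicate 1 (0.0562). Without Wild Type replicate 1, 1 gene of the list was lower, and without Ki-67-KO replicate 1, 5 were. Ddb1, the partner of Ddb2 in the damage-binding complex, had 748 to 836 CPM in Ki-67-KO libraries and 660 to 757 CPM in Wild Type libraries, which overlap, with a log2 fold change of 0.17 (adjusted p = 0.214). Among partners in nucleotide supply and redox metabolism, 2 of 9 tested genes were lower (22.2%, beside 18.4% of all genes), Tyms (-0.59, adjusted p = 0.00487), which makes thymidylate, and Pfkfb4 (-0.54, adjusted p = 0.0196), and none was higher. Pfkfb4 missed the threshold without any 1 Wild Type library or Ki-67-KO replicate 3 (adjusted p 0.0527 to 0.0705), which left Tyms alone, and without Ki-67-KO replicate 1 Pfkfb1 was also called higher. The ribonucleotide reductase subunits Rrm1 (-0.08) and Rrm2 (-0.14) were not called.

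Of the 4 members in metabolism, redox and RNA, Sesn1 was lower (25.0%, beside 18.4% of all genes). None was higher (17.6% of all genes), and the others were not called. Sesn1, sestrin 1, which restrains the growth kinase mTORC1, had 18.5, 16.7 and 17.3 CPM in Ki-67-KO libraries, against 24.7, 22.2 and 27.2 CPM in Wild Type libraries. The groups did not overlap, and the log2 fold change was -0.50 (SE 0.11, adjusted p = 0.00998). With the unmapped share or the share of pairs outside exons as a covariate it narrowly missed the threshold (adjusted p = 0.0532 and 0.0559). Tigar, a phosphatase that turns sugar away from glycolysis, Fdxr, the reductase of mitochondrial ferredoxin, and Zmat3, an RNA-binding regulator of splicing, had log2 fold changes of -0.14, 0.22 and -0.11 with overlapping groups. The sestrin paralog Sesn2, in the list of other targets, had a log2 fold change of 0.35 (adjusted p = 0.113).

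Upstream of p53, the list of 20 further genes that control it held 5 higher and 3 lower genes. The kinase Atm, which signals DNA breaks to p53 and Mdm2, had 13.3, 11.3 and 17.5 CPM in Ki-67-KO libraries, against 33.9, 37.8 and 30.3 CPM in Wild Type libraries, which is -1.28 on the log2 scale (SE 0.17, adjusted p = 0.00069). The acetyltransferase Ep300 (-0.55, adjusted p = 0.0146) and the deacetylase Sirt1 (-0.58, adjusted p = 0.0079) were lower as well. The kinase Chek1 had 58.5, 51.1 and 53.5 CPM in Ki-67-KO libraries, against 37.2, 34.3 and 31.7 CPM in Wild Type libraries (0.66, SE 0.10, adjusted p = 0.00145). Usp10, a deubiquitinase of p53, was 2.05-fold higher by group means (1.04, adjusted p = 0.000219), and Ppp1r13l, known as iASPP, an inhibitor of p53, was also higher (0.88, adjusted p = 0.00323), as was Hipk2 (0.59, adjusted p = 0.0186). Cdkn2a, whose Arf product sequesters Mdm2, was low, with 1.11, 1.38 and 1.20 CPM in Ki-67-KO libraries, against 0.469, 0.477 and 0.401 CPM in Wild Type libraries (1.45, SE 0.30, adjusted p = 0.0067). The counts do not separate Arf from the p16 transcript of the same gene. The share higher in the list was 25.0% and the share lower 15.0%, beside 17.6% and 18.4% of all genes tested. Leaving out Wild Type replicate 1 or Ki-67-KO replicate 3 cost both Hipk2 (adjusted p 0.0811 to 0.103, also without Wild Type replicate 3) and Ep300 (0.0527 to 0.0562, also without Wild Type replicate 2) their calls, and without Ki-67-KO replicate 1, 6 genes were lower.

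The p53 relative Trp63, which encodes the basal epithelial factor p63 and binds response elements like those of p53, had the largest log2 fold change among the tested genes of these lists. It had 18.9, 18.4 and 15.1 CPM in Ki-67-KO libraries, against 2.10, 2.15 and 2.14 CPM in Wild Type libraries. The Wild Type values were nearly identical, the means differed 8.21-fold and the log2 fold change was 3.04 (SE 0.15, adjusted p = 3.97e-06). The counts do not separate the long and short forms of p63. Trp73 was too low to be tested, at 0.260, 0.751 and 0.301 CPM in Ki-67-KO libraries and 0.083, 0.079 and 0.134 CPM in Wild Type libraries. Sfn, which encodes the arrest protein 14-3-3 sigma of epithelia, had 224, 264 and 206 CPM in Ki-67-KO libraries, against 37.7, 37.9 and 35.5 CPM in Wild Type libraries (2.64, SE 0.11, adjusted p = 2.25e-06). Trp63, Sfn, Perp and the keratinocyte and epithelial marker sums were all higher in the 3 Ki-67-KO libraries. A shared direction between groups does not link them. Within Ki-67-KO, Trp63, Perp and the epithelial sum were highest in replicate 1, and Sfn and the keratinocyte sum in replicate 2. The part of keratinocytes, of other epithelial cells or of p63 was not tested.

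Of the 25 other targets, 6 were higher (24.0%) and 5 were lower (20%), beside 17.6% and 18.4% of all genes tested. Beside Cdkn1a and Sfn, the higher ones were Bid (0.92, adjusted p = 0.000152), a link from death receptors to mitochondria, the cytokine Lif (0.93, adjusted p = 0.000352), the spindle protein Ckap2 (0.93, adjusted p = 0.000102) and the receptor kinase Epha2 (0.38, adjusted p = 0.0144). The lower ones were Rap2b (-0.87, adjusted p = 0.00066), Psrc1 (-0.87, adjusted p = 0.0123), Triap1 (-0.57, adjusted p = 0.0189), Cgref1 (-0.53, adjusted p = 0.0153) and Ak1 (-0.35, adjusted p = 0.0146). Of these lower genes 1 remained called without Wild Type replicate 1 (Rap2b), 3 without Wild Type replicate 2 and 2 without Ki-67-KO replicate 3, and Epha2 lost its call without any 1 Wild Type library or Ki-67-KO replicate 3 (adjusted p 0.0521 to 0.106). Rap2b shares 58.3% of its exonic bases with other genes and Bid 17.7%, and pairs that fall there were not counted. Genes of the mitotic programme that p53 is known to repress through p21 and the DREAM complex were read from a list of 12. Of these, 5 were higher (41.7%, beside 17.6% of all genes) and none was lower (18.4% of all genes). They were Birc5 (0.59, adjusted p = 0.00289), Cdc25c (0.56, adjusted p = 0.00361), Ccna2 (0.49, adjusted p = 0.00879), Foxm1 (0.77, adjusted p = 0.00945) and Mybl2 (0.54, adjusted p = 0.016). Cdk1 itself overlapped between the groups, with a log2 fold change of 0.01. This list, like the other further lists, was chosen with earlier results of these data known, and its share was not tested. Cdc25c shares 12.7% of its exonic bases with another gene and Ccna2 12.5%. With only libraries under 40% unmapped pairs, 2 of the 12 were higher. Without Wild Type replicate 3, 2 were higher, Ccna2, Foxm1 and Mybl2 missing the threshold (adjusted p 0.0692, 0.052 and 0.0931), and without Wild Type replicate 2, 3 were, Ccna2 and Mybl2 missing it (0.057 and 0.0853).

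**Figure D4:**
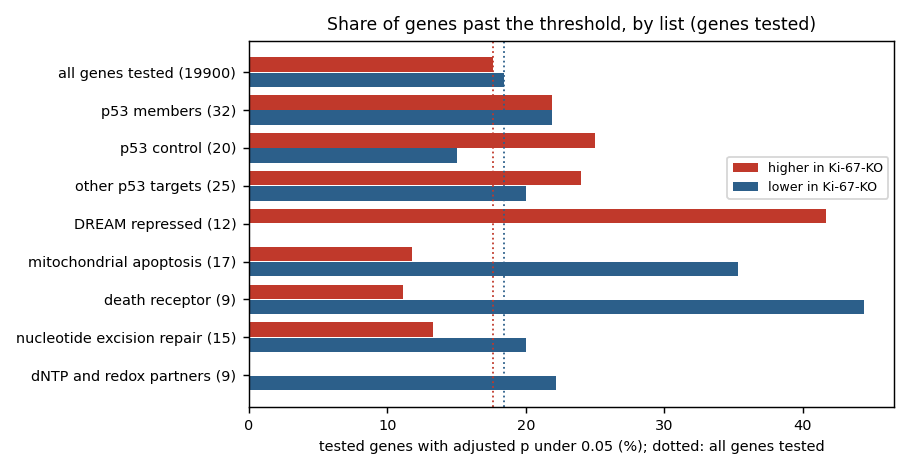
Share of tested genes called higher (upper bar) and lower (lower bar) in Ki-67-KO for all genes, the 32 members and each further list with more than 1 tested gene, with dotted lines at the shares of all genes. The members stand at 21.9% in both directions, near the lines at 17.6% and 18.4%; the DREAM list has no lower gene, and the death receptor and mitochondrial apoptosis lists have 44.4% and 35.3% lower.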

How the data were processed

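RNA of 6 tumors was sequenced, 3 Ki-67-KO and 3 Wild Type, grouped by their titles. Each deposited table gives raw counts, the whole number of read pairs assigned to each gene, in an unstranded and 2 stranded columns. The submitters' processing notes name STAR 2.6.0c, FastQC, DESeq2 and the GRCm38 build. In STAR's count format, which the tables follow, pairs that map to several places or overlap exons of more than 1 gene are counted for none. Rows that name no gene were left out; unmapped pairs were 30.8% to 54.6%, and 9.24% to 18.9% of uniquely mapped pairs lay outside exons. The unstranded column was used, since the first stranded column held 50.1% to 50.2% of stranded counts.

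Identifiers were matched to GENCODE M21 (54079 of 54146 rows). The quasi-likelihood test of edgeR 4.0.16 (R 4.3.3; filterByExpr, TMM, glmQLFit, glmQLFTest) was run over 19900 genes, with Benjamini-Hochberg adjustment and a threshold of 0.05, and this step was tested on simulated data. TPM values used exon lengths of the annotation. A count of 0 allows up to 3 counts, 0.079 to 0.129 CPM, for counting error only. The labels do not say whether tumors of a group came from separate cell cultures, so p-values measure the spread between these samples. The members and the further lists, taken from textbook roles, were chosen with earlier results of these data known. Named were all members, Mki67, up to 4 genes of smallest p in each further list and 9 fixed genes; most of the remaining genes past the threshold in those lists, and Bak1, Cdk1, Ddb1 and Sesn2, were named after their values were seen. Of 111 list entries 110 were found; some genes counted in the lists are not reported here by name. The alternatives were DESeq2 1.42.0, RLE factors, library totals, no filter, a stricter filter, a stranded column, robust estimation, each replicate left out, the replicate number as a block, abundant genes left out, only libraries under 40% unmapped pairs, and a covariate for the unmapped share or for the share outside exons.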

Additional observations from a re-analysis of the deposited data

How the results depend on the processing

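Of the 32 members, 5 to 8 were higher and 5 to 10 lower over 18 alternatives, and both counts stayed within 1.5 times the reported 7 and 7. Of the 14 called members 10 kept their call and direction in every alternative, 5 higher and 5 lower, and 12 of the 18 others stayed without a call in every alternative; Eda2r fell below the stricter filter and was not tested there. Plk3 turned to -0.27 with only libraries under 40% unmapped pairs, which leaves 1 Ki-67-KO library. The cause was not tested. The median log2 fold change of the p53 members was -0.063 with library totals, -0.19 with no filter, -0.030 on the first stranded column, -0.21 with libraries under 40% unmapped and -0.036 with a covariate for the share outside exons, and -0.22 to -0.093 with a replicate left out. A shift common to all genes is not separated from these values. Of the 45 genes called in the further lists, 23 kept their call in every alternative and 22 lost it in at least 1, Sirt1 and Rpa1 with a covariate for the share outside exons only and the others with a library left out.

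Counts in the small lists moved more. With only libraries under 40% unmapped, where the 1 Ki-67-KO library is assumed to vary like the others, 6 genes of p53 control, 7 of the death receptor list and 4 of dNTP and redox partners were lower, and 2 of the DREAM list, 1 of mitochondrial apoptosis and 1 of nucleotide excision repair were higher. With a covariate for the unmapped share, 2 other p53 targets were lower, and 0 death receptor genes and 1 of nucleotide excision repair were higher. With a covariate for the share outside exons, 1 other p53 target, 1 gene of nucleotide excision repair and 1 of dNTP and redox partners were lower, and 0 of mitochondrial apoptosis were higher. With no filter on low counts, 2 genes of the p53 family, 1 of mitochondrial apoptosis, 0 of the death receptor list and 1 of nucleotide excision repair were higher. With library totals, the stricter filter or the first stranded column, 1 gene of dNTP and redox partners (Pfkfb1) was higher.

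With a replicate left out, the lower counts were 2 to 6 for p53 control, 1 to 6 for other p53 targets, 3 to 7 for the death receptor list, 1 to 5 for nucleotide excision repair and 1 to 3 for dNTP and redox partners. The higher counts were then 1 to 2 for the p53 family, 2 to 6 for the DREAM list, 0 to 3 for mitochondrial apoptosis, 0 to 1 for the death receptor list, 1 to 2 for nucleotide excision repair and 0 to 1 for dNTP and redox partners.

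Deviations of same-numbered samples from their group means correlated at 0.05, -0.21 and -0.24 for replicates 1, 2 and 3. Those of differently numbered samples correlated at -0.10 to 0.25. No pairing by the replicate numbers in the titles was seen, but 3 libraries per group cannot exclude it. With the replicate number as a block, 6 members were higher and 7 lower, Tnfrsf10b being the one not called, and 1 gene of mitochondrial apoptosis and 1 of nucleotide excision repair were higher. Depth limits Gdf15 (33 counts over the Ki-67-KO libraries), Eda2r (77) and the untested Fasl and Trp73.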

Other observations

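Per length, the order of the members by level was largely kept between genotypes, with changes where called members crossed others. In the Ki-67-KO tumors Perp was the most abundant member, at 348 ± 52.9 TPM, ahead of Gadd45a at 159 ± 26.9 TPM, whereas in the Wild Type tumors Gadd45a led at 263 ± 39.0 TPM and Perp stood at 118 ± 7.87 TPM (SD, n = 3 each). Pairs in the 19.1% of Gadd45a exonic bases shared with E230016M11Rik were not counted, while its full exon length was used. The TPM of Gadd45a can therefore be too low in both groups. Fas stood at 29.8 ± 2.83 TPM in Ki-67-KO tumors and 11.3 ± 1.59 TPM in Wild Type tumors, which is rank 11 and rank 21 of 32. Apaf1 stood at 8.69 ± 0.32 TPM in Ki-67-KO tumors and 16.0 ± 0.64 TPM in Wild Type tumors, rank 24 and rank 14. Gdf15 and Eda2r were the least abundant in both, at 0.660 and 0.483 TPM in Ki-67-KO tumors and 2.09 and 0.444 TPM in Wild Type tumors.

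The members varied more among the Ki-67-KO libraries than among the Wild Type libraries. The median ratio of SD to mean was 12.9% over the members in Ki-67-KO libraries and 5.07% in Wild Type libraries, beside 17.8% and 8.51% over all genes tested in the same order of groups. The ratio was larger in Ki-67-KO for 25 of 32 members. Ki-67-KO replicate 2 held the value farthest from the group's median for 14 members, replicate 3 for 10 and replicate 1 for 8. In the Ki-67-KO libraries Apaf1, Bax and Sesn1 were among the steadiest called members, and Trp53 was among the widest of all members. Per length, Bax stood to its partner Bak1 as 0.798 ± 0.134 to 1 in Ki-67-KO libraries and 1.22 ± 0.09 to 1 in Wild Type libraries (SD, n = 3 each; exact permutation p = 0.1, the smallest possible), and Rrm2b to Rrm2 as 0.089 ± 0.011 to 1 in Ki-67-KO libraries and 0.098 ± 0.013 to 1 in Wild Type libraries, which overlap (exact permutation p = 0.6). Bak1 shares 25.5% of its exonic bases with Ggnbp1, and pairs that fall there were not counted.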
